A study of Mus musculus with 16 samples.

Results

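The 10 genes studied here are ones whose transcription is switched on by neuronal activity: Fos, Fosb, Junb, Egr1, Egr2, Npas4, Nr4a1, Arc, Dusp1 and Bdnf. They were followed in hippocampal RNA of 16 mice. The members were taken by gene symbol from the deposited table of raw counts, in which all 10 were found among 54532 listed genes, and each symbol matched 1 row. The mice formed 4 groups of 4: WT on vehicle water, WT + NR, hTau.P301S on vehicle water, and hTau.P301S + NR. In hTau.P301S mice the transgene is human P301S Tau, driven by the Thy1 promoter, which is active mainly in neurons, and the mouse Mapt gene is still present. NR is nicotinamide riboside, a precursor of NAD+, and the dose was 6 mM in the drinking water. The sample labels have treatment run for 3 months, from 12 to 15 months of age. Another description of these mice has them at 11 to 14 months, and a further one has 2 months of NR. All 4 groups went through tests of memory and exploration (Morris water maze, Y maze, object location and object recognition) before tissue was taken under anaesthesia. The time between the last test and tissue collection, and whether WT and hTau.P301S mice were littermates, are not given in the sources used here. The comparisons ask how the hippocampal transcriptome differs with the tau transgene, with NR in each genotype, and whether the difference with NR depends on genotype.

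Immediate early genes are transcribed within minutes of strong synaptic input without new protein synthesis. Calcium entering through NMDA receptors and voltage-gated channels, and kinases of the MAPK and CaMK families, activate CREB and SRF already sitting at their promoters, and the mRNAs decay quickly once the input ends. Fos, Fosb and Junb encode subunits of the AP-1 transcription factor, Egr1 and Egr2 are zinc finger factors, Npas4 is a neuron-restricted factor that responds to calcium entry, and Nr4a1 is an orphan nuclear receptor. Arc, Dusp1 and Bdnf act outside the nucleus or as feedback: Arc controls AMPA receptor traffic and synaptic plasticity, Dusp1 is a phosphatase that inactivates MAPKs, and Bdnf is a secreted neurotrophin that signals through its receptor TrkB. Bdnf is also classed with the delayed or secreted activity-regulated genes, a list followed further below.

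The promoters of these genes are known for cAMP response elements (CREs), bound by CREB, and for CArG boxes, bound by SRF. RefSeq promoter windows of 300 bases on GRCm38.p6 (250 before and 50 after each start) were matched by symbol for 8 of the 10 members, with 18 windows in all, 7 of them of Bdnf and 5 of Egr2. No window was matched for Egr1 and Arc. Both strands were searched for the full CRE TGACGTCA and for its core TGACG (read as CGTCA on the other strand). They were also searched for the CArG box CCWWWWWWGG (W is A or T) and for TGANTCA, a loose form of the AP-1 site (N is any base). A full CRE holds a core on each strand. The CRE core was present in at least 1 window of each of the 8 members, against 23.05% of the 27025 genes with a window. It was in 10 of their 18 windows, against 20.81% of 32851 windows of all genes. Of these 10, 3 are overlapping Egr2 windows with the same cores. Within these windows, the full CRE was found only in Dusp1 among the members (2.031% of all genes), the CArG box only in Egr2 (1.806%) and TGANTCA only in Bdnf, in 1 window, as TGAATCA (8.973%). Elements more than 250 bases before a start, or departing from these strings, were not searched for. A member without a match may therefore still have such an element. The stretches below hold the matches, in capitals, with 10 bases on each side. They are shown for Fos, Fosb and Egr2, whose levels moved most closely together across mice, for Dusp1 with its full CRE, and for Junb, Npas4 and 1 of the Bdnf windows as shorter examples. A match is a string of letters and not a measured site.
Fos, chr12:85473751-85473838, + strand: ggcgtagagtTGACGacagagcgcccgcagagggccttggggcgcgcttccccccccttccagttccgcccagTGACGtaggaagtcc
Fosb, chr7:19310091-19310115, - strand: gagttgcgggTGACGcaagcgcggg
Egr2, chr10:67537748-67537828, + strand: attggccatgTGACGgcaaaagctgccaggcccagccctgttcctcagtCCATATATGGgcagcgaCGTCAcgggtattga
Dusp1, chr17:26508598-26508673, - strand: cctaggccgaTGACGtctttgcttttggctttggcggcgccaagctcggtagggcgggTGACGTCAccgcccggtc
Junb, chr8:84978840-84978864, - strand: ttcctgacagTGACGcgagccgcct
Npas4, chr19:4990126-4990160, - strand: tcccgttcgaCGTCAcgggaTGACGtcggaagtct
Bdnf, chr2:109692391-109692415, + strand: tgacagctcaCGTCAaggcagcgtg
In Fos the matches began 129 and 66 bases before the start. In Egr2 the stretch lies upstream of 3 of its overlapping windows' starts and holds a CArG box between 2 CRE cores. The remaining member with a window, Nr4a1, had 4 CRE cores between 233 and 40 bases before its start.

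Total counts per mouse ranged from 16490261 to 21915362. Markers of hippocampal neurons were present in every mouse, with dentate granule neuron markers summing to 205 to 735 CPM, CA1 markers to 350.3 to 824 CPM and CA3 markers to 134 to 605 CPM. CPM are counts scaled to the TMM-normalised total of each mouse. Thy1, whose promoter drives the transgene, averaged 1135 ± 359 CPM in transgenic mice on vehicle (SD, n = 4) and 733 ± 77.2 in those on NR, against 528 ± 78.3 in WT and 525 ± 71.6 in WT + NR. Mapt averaged 365 ± 124 CPM in transgenic mice on vehicle (SD, n = 4) and 425 ± 37.4 in WT mice. One library stood apart: hTau.P301S replicate 1 had 14.4% mitochondrial counts and 19467 genes detected, against 4.48% to 7.07% and at least 22199 genes in the other 15 mice. The TMM factor of this library was 0.685, against 0.955 to 1.10 in the other 15 mice. Its CPM are therefore higher relative to its total count than those of the other mice. Other features of this library also differed. Its 5 microglia markers summed to 1562 CPM, against 236 to 486 CPM in the others, with 3 of the 5 above all other mice and 1 below all of them. Of that sum, C1qa made up 1226 CPM. In 3 further mice, WT replicate 2, WT + NR replicate 3 and hTau.P301S + NR replicate 4, all 5 markers of striatal neurons were above those of every other mouse (sums of 160 to 850 CPM, against 26.0 to 81.9 CPM in the other 13). The summed excitatory neuron markers of these 3 mice, 2052 to 3540 CPM, were below the 3730 to 7563 CPM of the others, with 3 of the 5 markers below all other mice. Their summed interneuron markers, 1304 to 1645 CPM, were above the 607 to 1288 CPM of the others, with 1 of the 5 above all other mice. In bulk tissue, fewer cells of a type and less RNA per cell cannot be told apart.

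Divided by gene length in kilobases, Arc had the highest level of the 10, with a median of 30.4 CPM per kilobase over 16 mice. Junb followed at 26.2, Egr1 at 24.0 and Nr4a1 at 14.7 CPM per kilobase. Dusp1 (7.24), Bdnf (6.03) and Fos (4.32) formed a middle range, and Npas4 (1.48), Fosb (1.34) and Egr2 (0.577) were lowest. Of the 9 pairs of neighbours in this order, 4 did not differ beyond the spread over mice by a sign-flip permutation test: Arc and Junb (adjusted p = 0.395), Junb and Egr1 (adjusted p = 0.0764), Bdnf and Fos (adjusted p = 0.154) and Npas4 and Fosb (adjusted p = 0.412). Lengths are those of the deposited table, whose definition is not stated. The raw counts behind these levels ran from 455 to 3226 for Egr1 and from 14 to 87 for Egr2, so Egr2 carries the most counting error.

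No member was called a differentially expressed gene (DEG) in any comparison, where a DEG had an adjusted p under 0.05 (Benjamini-Hochberg over all genes tested) and an absolute log2 fold change above 0.5. All 10 passed edgeR's filter on low counts in every comparison. The levels of each gene in each mouse are given by role, followed by the comparisons.

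**Figure D1:**
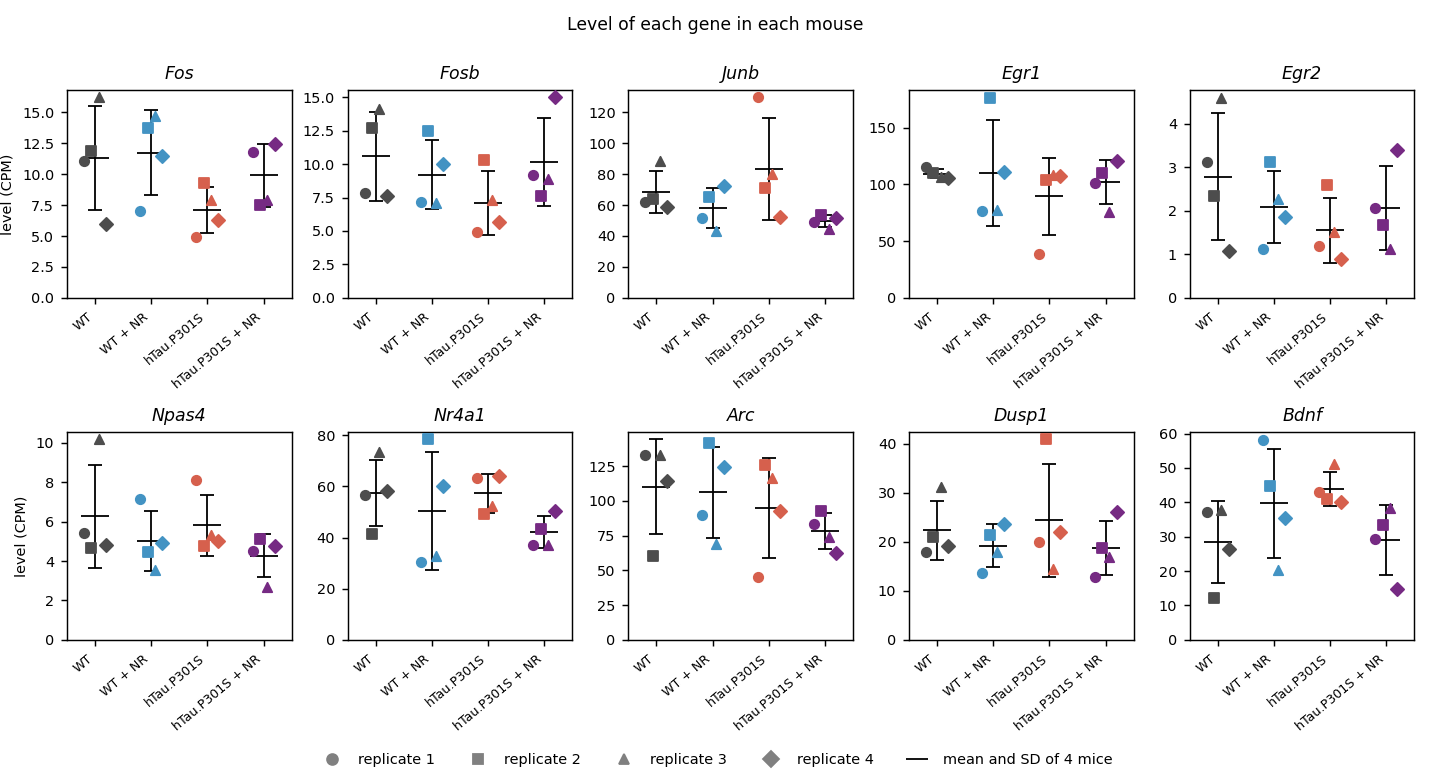
Level of each of the 10 genes in CPM (y axis, linear, from 0) in each mouse of the 4 groups (x axis); marker shape gives the replicate number, and the bar with whiskers is the mean and SD of 4 mice. The groups overlap in nearly every panel, and hTau.P301S replicate 1 is the lowest mouse for Fos, Fosb, Egr1 and Arc and the highest for Junb.

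Among the AP-1 subunits, Fos was at 11.1, 11.9, 16.2 and 6.00 CPM in WT replicates 1 to 4 and at 7.04, 13.8, 14.7 and 11.5 CPM in WT + NR. It was at 4.96, 9.27, 7.90 and 6.26 CPM in hTau.P301S and at 11.8, 7.51, 7.90 and 12.4 CPM in hTau.P301S + NR. All 4 hTau.P301S mice lay below the WT median, but WT replicate 4 lay among them. Fosb, a longer-lived partner of the same family in its truncated form, was at 7.84, 12.7, 14.1 and 7.63 CPM in WT and at 4.96, 10.3, 7.30 and 5.71 CPM in hTau.P301S. It was at 7.19, 12.5, 7.06 and 10.0 CPM in WT + NR and at 9.19, 7.62, 8.91 and 15.0 CPM in hTau.P301S + NR. As for Fos, the lowest mouse was hTau.P301S replicate 1, and the ranges of the groups overlapped.

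Junb, the AP-1 partner of Fos proteins, was at 61.9, 64.2, 88.5 and 58.8 CPM in WT and at 51.7, 65.1, 43.5 and 72.1 CPM in WT + NR. It was at 129.9, 71.0, 80.0 and 52.0 CPM in hTau.P301S and at 49.3, 53.5, 44.8 and 51.9 CPM in hTau.P301S + NR. The hTau.P301S + NR mice were tightly grouped, and the widest spread was that of hTau.P301S, because of replicate 1. Junb overlaps Prdx2, a peroxiredoxin gene on the opposite strand, and the library kit does not mark strand, so reads in the shared stretch cannot be told apart. Prdx2 was at 1007 CPM in hTau.P301S replicate 1 and at 148 to 253 CPM in the other 15 mice. Its part in the Junb level of that mouse was not tested.

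Of the zinc finger factors, Egr1 was at 116, 110.3, 107 and 106 CPM in WT and at 76.2, 176, 77.1 and 111 CPM in WT + NR. It was at 38.9, 104, 109 and 108 CPM in hTau.P301S and at 102, 110.3, 75.7 and 120.5 CPM in hTau.P301S + NR. The WT mice differed little from each other, and apart from replicate 1 the hTau.P301S mice were at 104 to 109 CPM. Egr2, at far lower counts, was at 3.12, 2.35, 4.59 and 1.08 CPM in WT and at 1.20, 2.60, 1.53 and 0.887 CPM in hTau.P301S. It was at 1.13, 3.11, 2.27 and 1.86 CPM in WT + NR and at 2.06, 1.67, 1.12 and 3.40 CPM in hTau.P301S + NR. The highest and the lowest mouse differed 5.17-fold, the widest range of the 10 genes, and every group overlapped every other.

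Npas4 ranged from 4.65 to 10.2 CPM in WT, from 3.55 to 7.14 in WT + NR, from 4.77 to 8.12 in hTau.P301S and from 2.69 to 5.11 in hTau.P301S + NR. WT replicate 3, at 10.2 CPM, was its highest mouse and hTau.P301S + NR replicate 3, at 2.69 CPM, its lowest. Nr4a1 was at 56.7, 41.5, 73.5 and 58.0 CPM in WT and at 30.6, 78.7, 32.6 and 60.0 CPM in WT + NR. It was at 63.3, 49.3, 52.4 and 64.1 CPM in hTau.P301S and at 37.3, 43.3, 37.3 and 50.4 CPM in hTau.P301S + NR. The last group lay below the hTau.P301S mice except for replicate 4, which exceeded the lowest of them.

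Of the effectors, Arc was at 133, 60.4, 133 and 115 CPM in WT and at 90.1, 141, 68.9 and 124 CPM in WT + NR. It was at 45.0, 126, 116 and 92.8 CPM in hTau.P301S and at 83.2, 92.9, 73.9 and 62.7 CPM in hTau.P301S + NR. The 4 lowest mice were hTau.P301S replicate 1 and the 3 mice with high striatal markers. Dusp1 ranged from 17.9 to 31.2 CPM in WT, from 13.6 to 23.7 in WT + NR, from 14.5 to 41.0 in hTau.P301S and from 12.9 to 26.1 in hTau.P301S + NR. Its locus overlaps Ergic1 on the opposite strand, which had 755 to 2657 counts per mouse.

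Bdnf was at 37.2, 12.2, 37.8 and 26.5 CPM in WT and at 43.0, 41.0, 51.3 and 40.2 CPM in hTau.P301S. It was at 58.1, 44.8, 20.4 and 35.5 CPM in WT + NR and at 29.3, 33.5, 38.4 and 14.9 CPM in hTau.P301S + NR. In CPM, all 4 hTau.P301S mice were above all WT mice and above all hTau.P301S + NR mice, while the WT + NR mice, at 20.4 to 58.1 CPM, overlapped every group. Both separations depend on the TMM scaling of hTau.P301S replicate 1 (factor 0.685), whose Bdnf count was 503 of 17096764. Relative to total counts it lay below WT replicates 1 and 3 (679 of 17561917 and 716 of 18509516). It also lay below hTau.P301S + NR replicates 2 and 3 (642 of 18375427 and 686 of 18058674). The 3 lowest mice, at 12.2, 14.9 and 20.4 CPM, were the 3 with high striatal markers and low excitatory neuron markers, and the part of these in the Bdnf level was not tested.

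**Figure D2:**
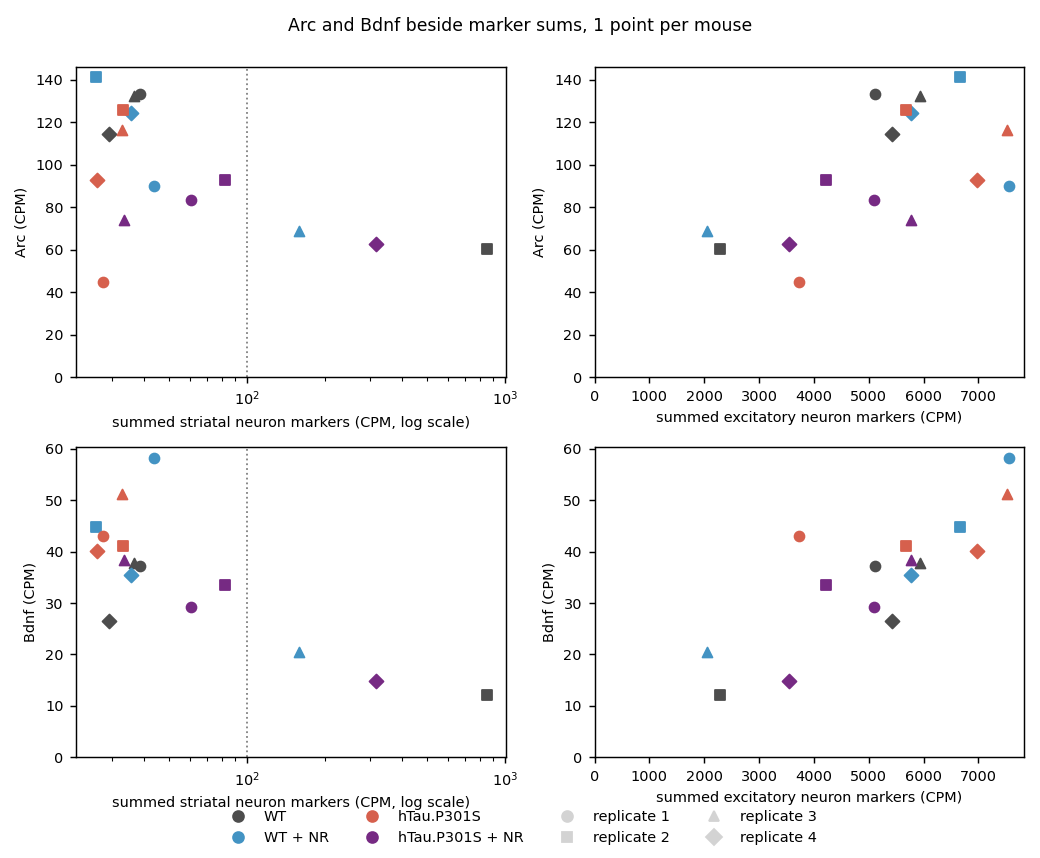
Arc (top) and Bdnf (bottom) in CPM against the summed level of 5 striatal neuron markers (left, log scale, dotted line at 100 CPM) and of 5 excitatory neuron markers (right, linear); each point is a mouse, coloured by group, with the shape giving the replicate. The 3 mice right of the dotted line have 60.4 to 68.9 CPM of Arc and 12.2 to 20.4 CPM of Bdnf, the 3 lowest Bdnf values of the 16.

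With the tau transgene and no NR, 4 of the 10 genes were higher and 6 lower, relative to WT, and none was a DEG. The largest differences were lower Egr2, Fos and Fosb and higher Bdnf. On the log2 scale Egr2 differed by -0.84 (SE 0.51), Fos by -0.67 (0.34) and Fosb by -0.58 (0.32), each with an adjusted p of 0.598 by edgeR's quasi-likelihood test. Bdnf was 1.55-fold higher, a log2 fold change of 0.63 (standard error 0.33, 95% interval -0.11 to 1.38, adjusted p = 0.598, edgeR). Bdnf was 43.9 ± 5.06 CPM in hTau.P301S and 28.4 ± 12.0 CPM in WT (SD, n = 4), and an exact two-sided permutation test of log2 CPM gave p = 0.0286, the smallest that 4 mice against 4 allow, without adjustment for the 40 such tests made. This p, too, depends on the TMM scaling of hTau.P301S replicate 1. Without WT replicate 2, the WT mouse with high striatal markers, the log2 fold change of Bdnf was 0.36 (adjusted p = 0.623, edgeR). Junb was higher by 0.29 (standard error 0.30) with hTau.P301S replicate 1 and differed by -0.024 without it. Egr1 was lower by 0.29 (standard error 0.30), and lower by 0.046 without that mouse. Nr4a1 differed on the log2 scale by 0.00035 (standard error 0.21, 95% interval -0.47 to 0.47), with the sign turning under 5 other settings, DESeq2's scaling among them, and without any 1 of 5 mice.

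The background over all genes in this comparison was 1 DEG of 16375 tested, or 0.00611%. By DESeq2 none of the 10 was a DEG, against 0.702% of all genes. At an unadjusted p under 0.05 the count was 0 of 10, against 7.14% of all genes, and 1 of 10, Bdnf, had groups without overlap in CPM, against 6.24% of all genes. The median log2 fold change of the 10 was -0.16, and that of all genes 0.023. It rested on single mice: it was -0.0033 without WT replicate 3, -0.054 without hTau.P301S replicate 1, -0.27 without WT replicate 2 and -0.33 without hTau.P301S replicate 2.

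**Figure D3:**
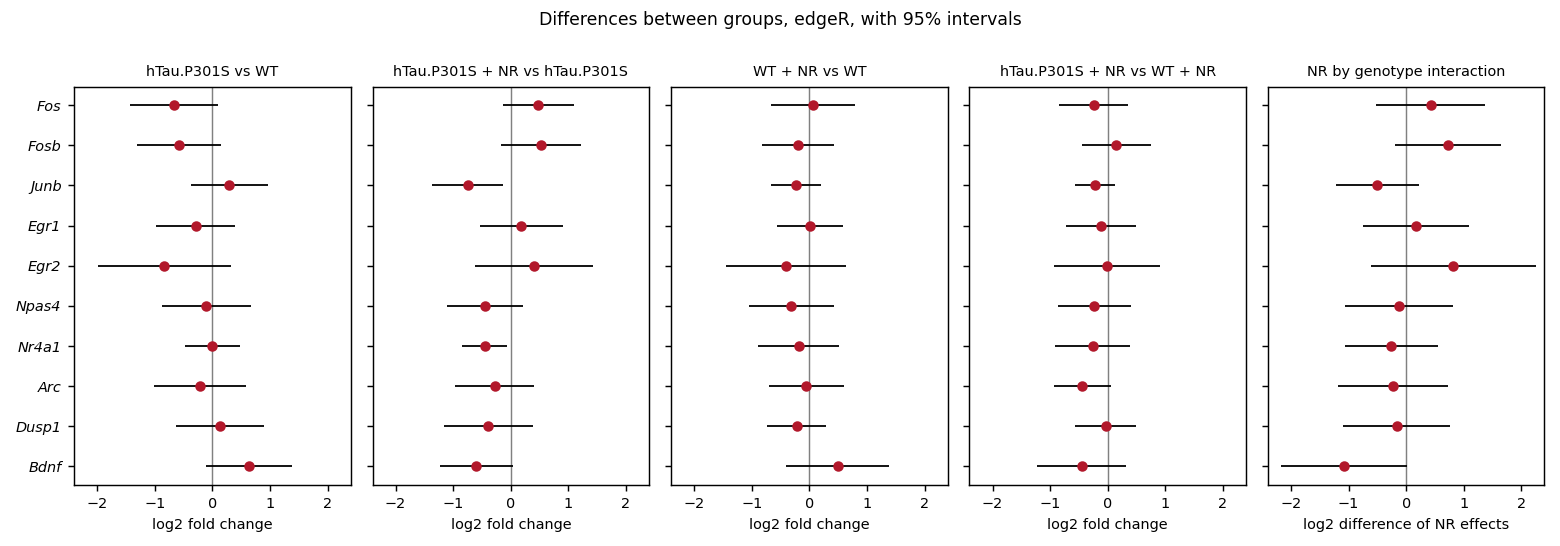
Log2 fold change of each gene (points) with its 95% interval (lines) from edgeR in the 4 comparisons, and in the last panel the difference of the NR effects between genotypes (hTau.P301S minus WT); x axes are on the log2 scale and the grey line is at 0. Only the intervals of Junb and Nr4a1 in hTau.P301S + NR vs hTau.P301S lie wholly on one side of 0, and neither passes the adjustment over all genes.

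With NR in hTau.P301S mice, the AP-1 subunit Junb, the nuclear receptor Nr4a1 and Bdnf were lower and Fos, Fosb and Egr2 higher, and none was a DEG. Junb was 49.9 ± 3.78 CPM in hTau.P301S + NR and 83.2 ± 33.2 CPM in hTau.P301S (SD, n = 4), or -0.75 on the log2 scale with SE 0.27 (edgeR adjusted p = 0.367). All 4 treated mice were below the untreated median. Without hTau.P301S replicate 1 it was -0.43 (standard error 0.15, adjusted p = 0.187, edgeR). Nr4a1 was 42.1 ± 6.26 CPM with NR and 57.3 ± 7.56 CPM without (SD, n = 4), or -0.45 on the log2 scale with SE 0.17 (edgeR adjusted p = 0.367), and it was -0.38 without hTau.P301S replicate 1. Bdnf was 29.0 ± 10.1 CPM with NR against 43.9 ± 5.06 CPM (SD, n = 4), or -0.60 on the log2 scale with SE 0.28 (edgeR adjusted p = 0.367), with an exact permutation p of 0.0286 and no overlap in CPM. The lack of overlap depends on the TMM scaling of hTau.P301S replicate 1. Without hTau.P301S + NR replicate 4, the treated mouse with high striatal markers, the Bdnf value was -0.38 (adjusted p = 0.534, edgeR). Since both comparisons of Bdnf use the same 4 hTau.P301S mice, they are not independent of each other.

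Fos was higher by 0.48 (standard error 0.27), Fosb by 0.52 (0.31) and Egr2 by 0.40 (0.45) on the log2 scale in the treated hTau.P301S mice, with adjusted p from 0.389 to 0.642 by edgeR. Arc was lower by 0.28 (standard error 0.30), and lower by 0.51 (0.15) when hTau.P301S replicate 1 was left out, where its adjusted p of 0.147 (edgeR) was the smallest of any member in any of the 90 alternative fits. Npas4 was lower by 0.45 (standard error 0.29), Dusp1 lower by 0.39 (0.34) and Egr1 higher by 0.18 (0.32). Single mice carried much of these values. Without hTau.P301S + NR replicate 4 the difference was 0.27 for Fosb and 0.053 for Egr2. Without hTau.P301S replicate 2 it was -0.0038 for Dusp1, and without hTau.P301S replicate 1 it was -0.23 for Npas4 and -0.052 for Egr1.

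Across all genes tested in hTau.P301S + NR vs hTau.P301S, 1 of 16386 was a DEG, or 0.0061%, against 0 of the 10. DESeq2 called 1.73% of all genes and 0 of the 10. At an unadjusted p under 0.05 there were 2 of 10, Junb (exact permutation p = 0.0571) and Nr4a1 (exact permutation p = 0.0571), against 12.9% of all genes, and 1 of 10 had groups without overlap, against 11.9%. Both counts are close to the background share. The median log2 fold change of the 10 was -0.34 and that of all genes -0.031, but it was -0.057 without hTau.P301S replicate 2.

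With NR in WT mice, no member differed by more than 0.49 on the log2 scale, and all 10 had an adjusted p of 0.9999 (edgeR). Bdnf had the largest difference, higher by 0.49 (standard error 0.39, 95% interval -0.40 to 1.38), followed by Egr2, lower by 0.41 (0.46), and Npas4, lower by 0.31 (0.33). Without WT replicate 3 the Egr2 difference was -0.065 and that of Npas4 0.016, and Bdnf was higher by 0.23 without either WT replicate 2 or WT + NR replicate 1. Fos, Egr1 and Arc were within 0.06 of 0 (0.060, 0.011 and -0.050), and the 95% interval for Fos ran from -0.67 to 0.79. Without the 2 mice of these groups that had high striatal markers, Bdnf was higher by 0.45 (standard error 0.22, adjusted p = 0.9999, edgeR). The background was 0% by edgeR and 0% by DESeq2 of 16714 genes, 0.79% at an unadjusted p under 0.05 and 0.754% without overlap, and 0 of the 10 met any of these. In all, 7 of the 10 genes were lower, with a median of -0.19, against 0.0043 for all genes. The median was -0.010 without WT replicate 3, -0.060 without WT + NR replicate 1 and -0.082 without WT + NR replicate 3.

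Between the treated genotypes, hTau.P301S + NR vs WT + NR, 9 of the 10 genes were lower and Fosb higher, and none was a DEG. Arc had the smallest p: it was 78.2 ± 12.9 CPM in hTau.P301S + NR and 106 ± 32.8 CPM in WT + NR (SD, n = 4), or -0.44 on the log2 scale with SE 0.22 (edgeR adjusted p = 0.781). Every hTau.P301S + NR mouse was below the WT + NR median for Arc, and also for Fos, Junb and Bdnf. Bdnf was lower by 0.45 (standard error 0.34) and Junb lower by 0.22 (0.16). Without WT + NR replicate 2 the Arc difference was -0.27, without WT + NR replicate 4 that of Junb was -0.099, and that of Bdnf was -0.20 without WT + NR replicate 1 and -0.24 without hTau.P301S + NR replicate 4. Without WT + NR replicate 3, Arc was lower by 0.60 (standard error 0.18, adjusted p = 0.291, edgeR), Bdnf by 0.67 (0.29) and Junb by 0.33 (0.13), and without all mice of high striatal markers they were lower by 0.51, 0.45 and 0.35. The background was 0.054% of 16671 genes by edgeR and 0.348% by DESeq2, with 6.09% at an unadjusted p under 0.05 and 3.73% without overlap, and 0 of the 10 met any of these. The median of the 10 was -0.22 and that of all genes -0.016. It was -0.069 without WT + NR replicate 2, -0.10 without hTau.P301S + NR replicate 3 and -0.14 without WT + NR replicate 4.

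The test of whether the difference with NR depended on genotype used all 16 mice. Bdnf had the largest value, with an NR effect that for hTau.P301S mice differed from that for WT mice by -1.08 on the log2 scale (standard error 0.51, 95% interval -2.17 to 0.0094, adjusted p = 0.558, edgeR). With the 3 mice of high striatal markers left out it was -0.84 (standard error 0.29, adjusted p = 0.603, edgeR). Egr2 had a difference of 0.82 (standard error 0.67) and Fosb of 0.73 (0.43), in the direction of a higher NR effect in hTau.P301S mice, and these were 0.47 and 0.48 without hTau.P301S + NR replicate 4. Junb had -0.50 (0.34), or -0.19 (0.26) without hTau.P301S replicate 1. The other 6 genes were between -0.26 and 0.42. By edgeR 0 of the 10 and 0% of 17555 genes passed, and by DESeq2 0 of the 10 and 0.103%, while 7.92% of all genes and 0 of the 10 had an unadjusted p under 0.05 by edgeR. DESeq2 gave an unadjusted p of 0.0418 and an adjusted p of 0.509 for Bdnf.

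By edgeR, the biological coefficient of variation of the 10 genes in hTau.P301S vs WT ran from 26.2% for Nr4a1 to 51.0% for Egr2, and 35.6% for Bdnf placed Bdnf at percentile 46.1 of all genes tested. The order of mice was partly shared by the genes. WT replicate 3 was among the 4 highest mice for 8 of the 10 genes, all except Egr1 and Bdnf, and WT + NR replicate 2 for 7. WT + NR replicates 1 and 3 were each among the 4 lowest for 7 genes, and hTau.P301S + NR replicate 3 for 6. Mice of high and of low level were thus found within a single group. In hTau.P301S replicate 1 the genes parted: in CPM it was lowest of 16 for Fos, Fosb, Egr1 and Arc and among the 4 highest for Junb, Npas4, Nr4a1 and Bdnf. These ranks depend in part on the TMM factor of this library, 0.685. Relative to its total count of 17096764, its Nr4a1 (741 counts) and Bdnf (503 counts) were not among the 4 highest.

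**Figure D4:**
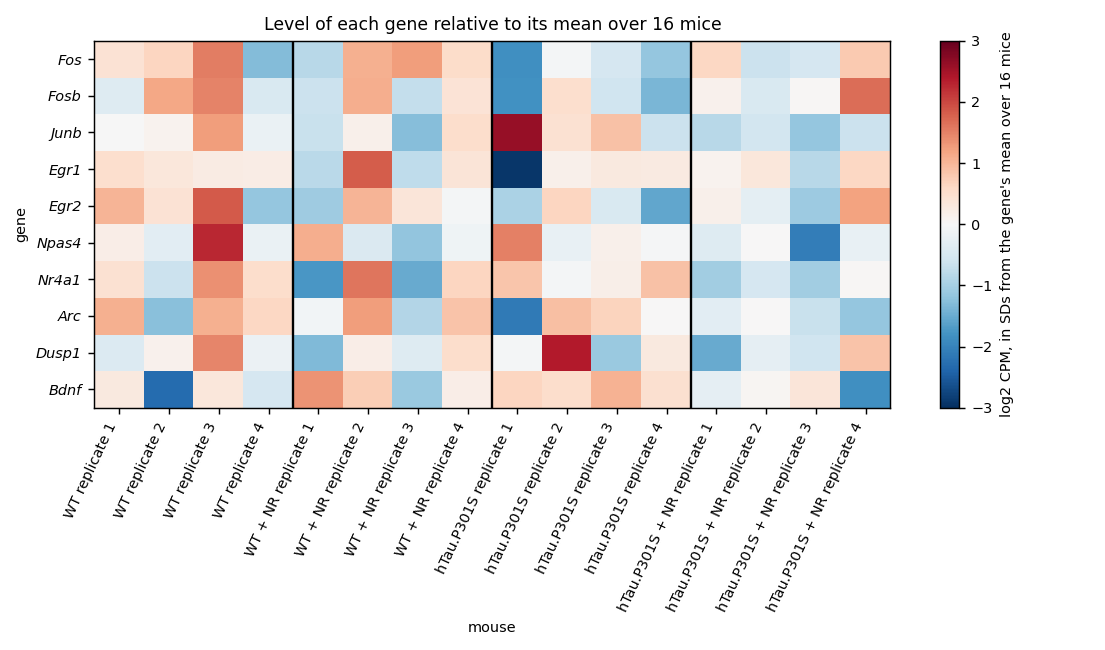
Log2 CPM of each gene (rows) in each mouse (columns, groups parted by black lines), in SDs from the gene's mean over 16 mice, red above and blue below. WT replicate 3 is above the mean for all 10 genes, while hTau.P301S replicate 1 reaches -2.91 for Egr1 and 2.61 for Junb.

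After each group's mean was removed, the 45 pairs of genes were compared over the 16 mice, with p from 100000 permutations of mice within groups. Fos and Egr2 were the most alike, with Pearson's r = 0.89 (adjusted p = 0.0112) and Spearman's rho = 0.92 (adjusted p = 0.0040). Without the 2 mice farthest from the median of Fos, r was 0.79, and without hTau.P301S replicate 1 it was 0.91. This was the only pair of 45 to pass the adjustment, by either measure. Fosb followed both, with r = 0.72 with Fos (rho = 0.71, permutation adjusted p = 0.0867 and 0.110) and r = 0.74 with Egr2 (rho = 0.65, adjusted p = 0.0867 and 0.162).

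Egr1 and Arc had r = 0.71 (rho = 0.66, permutation adjusted p = 0.116 and 0.152). Their r fell to 0.25 without the 2 mice farthest from the median of Egr1, and to 0.46 without hTau.P301S replicate 1 alone. It was 0.93 without the 3 mice of high striatal markers. Junb and Npas4 had r = 0.62 (rho = 0.71, permutation adjusted p = 0.116 and 0.110). Arc and Bdnf had r = 0.58 (rho = 0.39, permutation adjusted p = 0.116 and 0.436), which was -0.075 without the 3 mice of high striatal markers. Bdnf had negative r with Fos (-0.31), Fosb (-0.26), Dusp1 (-0.25), Egr2 (-0.18) and Egr1 (-0.017), none of which passed the adjustment. In all, 35 of 45 pairs had a positive r, with a median of 0.25, and 40 of 45 without hTau.P301S replicate 1, with a median of 0.37. The 16 mice also differed in marker levels, whose part in these values was not tested.

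**Figure D5:**
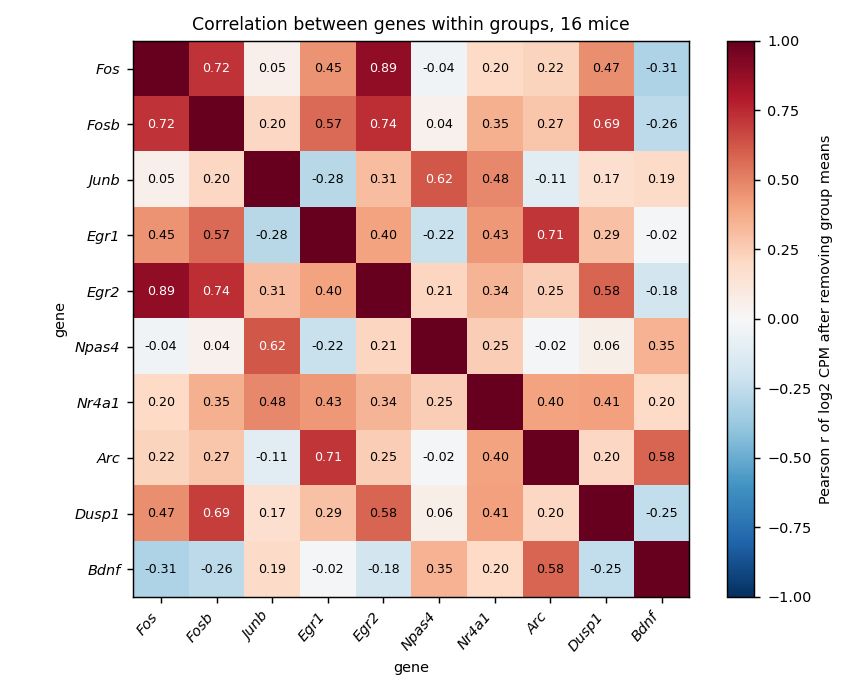
Pearson's r between each pair of the 10 genes (both axes) over 16 mice, computed on log2 CPM after subtracting each group's mean; red is positive and blue negative, and the value is printed in each cell. Fos, Fosb and Egr2 have r of 0.72 to 0.89 with each other, and the Bdnf row is negative for Fos, Fosb, Egr1, Egr2 and Dusp1.

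Of the 17545 other genes kept, the 10 whose within-group pattern over the 16 mice was most like the members had a median Pearson's r with them from 0.51 to 0.58. They were Stk40 (0.58), Cplx1 (0.55), Spry4 (0.54), BC037032 (0.54), Slc25a32 (0.53), Tenm4 (0.53), Glp2r (0.52), Gm16702 (0.52), 5830418P13Rik (0.52) and Gm13830 (0.51). Cplx1 encodes complexin 1, a regulator of synaptic vesicle release, and Spry4 an inhibitor of receptor tyrosine kinase signalling to MAPK. Without hTau.P301S replicate 1, 2 of these 10, Cplx1 and Slc25a32, were still among the 10 most alike, and by Spearman's rho 4 were, Cplx1, Spry4, Gm16702 and 5830418P13Rik.

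The rest of the pathway was followed in 4 lists of 86 genes, all tested in every comparison and none called by edgeR with all mice. At an unadjusted p under 0.05 stood 10.5% of the 86 in hTau.P301S vs WT (7.14% of all genes), 12.8% in hTau.P301S + NR vs hTau.P301S (12.9%), 2.33% in WT + NR vs WT (0.79%), 1.16% in hTau.P301S + NR vs WT + NR (6.09%) and 8.14% for the interaction (7.92%). Because hTau.P301S replicate 1 stood apart, the lists were also counted without it, a choice made after seeing the data: 11 higher and 1 lower of the 86 then had such a p in hTau.P301S vs WT (11.8% of all genes), 30.2% in hTau.P301S + NR vs hTau.P301S (18.0%) and 8.14% for the interaction (7.5%). Of 20 other rapid-response transcription factors, hTau.P301S mice had 12 higher and 8 lower than WT mice had them, 3 of them higher at an unadjusted p under 0.05. These were Atf3 (3.72 ± 3.12 against 0.960 ± 0.472 CPM, SD, n = 4), Csrnp1 (15.9 ± 3.52 against 9.95 ± 2.35 CPM) and Maff (4.05 ± 2.71 against 1.56 ± 0.704 CPM), with adjusted p of 0.598 by edgeR. Without hTau.P301S replicate 1 they differed on the log2 scale by 1.22, 0.60 and 1.43, against 1.95, 0.68 and 1.37 with it. With NR in hTau.P301S mice, 14 of the 20 were lower, and Csrnp1, at 8.29 ± 1.38 CPM, did not overlap the untreated group, with a log2 fold change of -0.94 (adjusted p = 0.350, edgeR). In WT + NR vs WT, Atf3 differed on the log2 scale by 1.42 (standard error 0.51), followed by Klf2 and Klf4, both with adjusted p of 0.9999 (edgeR). Klf2, a Krüppel-like factor, was 9.97 ± 1.22 CPM in hTau.P301S + NR and 13.9 ± 2.12 CPM in WT + NR without overlap (SD, n = 4, adjusted p = 0.781, edgeR), where 17 of the 20 were lower. These 2 groups did not overlap for 3.73% of all genes.

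Of 23 other rapid-response effectors, hTau.P301S mice had 16 higher and 7 lower than WT mice had them, 4 of them higher at an unadjusted p under 0.05 and 0 lower. Of all genes, 7.14% had such a p in this comparison and 6.24% had groups without overlap. Sgk1, a kinase also known as a target of glucocorticoids, was 231 ± 90.0 CPM in hTau.P301S and 61.4 ± 12.8 CPM in WT without overlap (SD, n = 4), which is 1.91 higher on the log2 scale (SE 0.31), and its adjusted p of 0.198 (edgeR) was the smallest of the 86 genes in that comparison. Without hTau.P301S replicate 1 Sgk1 was higher by 2.08 (SE 0.24) and passed as a DEG (edgeR adjusted p = 0.0228), the only one of the 86 genes to do so in the 3 comparisons refitted. Arl4d, a small GTPase-like protein, was 28.7 ± 7.68 against 11.6 ± 4.53 CPM, and Errfi1, a feedback inhibitor of the EGF receptor, 59.3 ± 12.1 against 36.6 ± 5.40 CPM (SD, n = 4), both without overlap and with adjusted p of 0.598 (edgeR). With NR in hTau.P301S mice, 17 of the 23 were lower, 6 of them at an unadjusted p under 0.05 and 0 higher. There, 12.9% of all genes had such a p and 11.9% had groups without overlap. Arl4d was at 11.3 ± 3.43 CPM, Sgk1 at 85.9 ± 34.2 CPM and Dusp5, a phosphatase of ERK, at 16.9 ± 6.13 CPM against 31.4 ± 1.73 CPM untreated (SD, n = 4), none overlapping the untreated mice, with adjusted p of 0.266, 0.350 and 0.367 by edgeR (0.0742, 0.0632 and 0.150 without hTau.P301S replicate 1). For Sgk1 the NR effect for hTau.P301S mice differed from that for WT mice by -2.12 on the log2 scale (standard error 0.43, adjusted p = 0.426, edgeR). Sgk1 in WT + NR was 99.2 ± 22.0 CPM.

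Of 19 delayed or secreted activity-regulated genes, hTau.P301S mice had 8 higher and 11 lower than WT mice had them, with 1 in each direction at an unadjusted p under 0.05. Bdnf was on this list as well and is counted only among the 10 members. Nptx2, a secreted pentraxin that gathers AMPA receptors, was 30.2 ± 8.98 against 19.0 ± 3.31 CPM (SD, n = 4), and the neuropeptide precursor Tac1 8.64 ± 2.54 against 56.8 ± 99.3 CPM, where the SD in WT exceeds the mean. Tac1 and Penk are also made by striatal neurons, whose markers were high in WT replicate 2. With NR in hTau.P301S mice, Cck (184 ± 30.6 CPM against a mean of 674 CPM, which its own SD exceeded) and Nrn1 (90.1 ± 12.8 against 125 ± 20.6 CPM) were lower without overlap, with adjusted p of 0.367 (edgeR). The groups did not overlap for 11.9% of all genes. Without hTau.P301S replicate 1 the Cck difference was -0.67 on the log2 scale, against -1.90 with it, and that of Nrn1 was -0.52 against -0.47. Of 24 genes of upstream signalling, receptors, kinases and CREB and SRF themselves, 0 had an unadjusted p under 0.05 in hTau.P301S vs WT, and 1 did with NR in hTau.P301S mice: Grin2b, an NMDA receptor subunit, at 621 ± 185 CPM against 265 ± 141 CPM (SD, n = 4, adjusted p = 0.367, edgeR). The factor Creb1 followed, at 56.9 ± 3.86 CPM with NR and 41.5 ± 11.9 CPM without, and Grin1, the obligatory NMDA receptor subunit, at 317 ± 30.5 CPM with NR and 392 ± 28.9 CPM without (SD, n = 4), neither at an unadjusted p under 0.05. Without hTau.P301S replicate 1, 8.33% of the 24 had such a p in hTau.P301S vs WT (11.8% of all genes). With NR in hTau.P301S mice 29.2% then did, 3 higher and 4 lower (18.0% of all genes). In the same 2 comparisons, the shares without that mouse were 21.7% and 43.5% of the 23 effectors, the latter 1 higher and 9 lower. They were 15% and 15% of the 20 transcription factors, and 10.5% and 31.6% of the 19 delayed or secreted genes, the latter 4 higher and 2 lower. Over the 86 genes with all mice, 8 were higher and 1 lower at an unadjusted p under 0.05 in hTau.P301S vs WT, 2 and 9 in hTau.P301S + NR vs hTau.P301S, 2 and 0 in WT + NR vs WT, 0 and 1 in hTau.P301S + NR vs WT + NR, and 1 and 6 for the interaction. In the same order, 7.14%, 12.9%, 0.79%, 6.09% and 7.92% of all genes had such a p.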

How the data were processed

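Hippocampal RNA of 16 mice was sequenced after NEBNext Ultra library preparation. The authors trimmed reads with Trim Galore, checked them with FastQC, aligned them to mm10 with STAR and deposited raw counts per gene from RSEM, whole numbers without normalisation. Whether counting used strand, and how the deposited gene length was defined, are not given in the sources used here. Groups were taken from the sample labels. The members and lists were chosen with earlier results of these data known.

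Counts were tested with edgeR 4.0.16 in R 4.3.3 (filterByExpr, TMM scaling, quasi-likelihood test), with 8 mice per comparison and 16 for the interaction, where the adjusted p alone made a call. CPM and log2 CPM (prior count 2) used TMM scaling over the 16 mice, and levels between genes were compared per kilobase. DESeq2 1.42.0, other scalings and filters, a replicate block and leaving out mice were alternatives, and leaving out the 3 mice with over 100 CPM of striatal markers, and counting the lists without hTau.P301S replicate 1, were chosen after seeing the data. The fit was tested on simulated data. From each of the 4 further lists the 3 genes of smallest p in a comparison were eligible to be named, and the 10 genes of highest median r were named as most alike. P-values of the group comparisons rest on the spread between the 4 mice of each group, which edgeR and DESeq2 estimate with information shared over genes. Those of the level order and of the gene pairs rest on all 16 mice. Motifs were searched in RefSeq windows, and positions are 1-based.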

Additional observations from a re-analysis of the deposited data

Results flagged for a closer look

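Egr1 in hTau.P301S replicate 1 was far from the other mice of its group: it was at 38.9 CPM, while the other 3 mice were at 104 to 109 CPM. The gap to the nearest mouse was 0.953 of the range of the group, against a limit of 0.829 by Dixon's test for 4 samples. Of 40 groups of 4 mice tested over the 10 genes, 1 was set apart in this way, and chance does so for about 1 in 20. The same library had 14.4% mitochondrial counts, 19467 genes detected and 1562 CPM of summed microglia markers, 1226 CPM of it C1qa. The part of these in the Egr1 level was not tested.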

How the results depend on the processing

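None of the 10 genes was called by any of the 90 alternative fits, and the smallest adjusted p was 0.147 (Arc, edgeR, without hTau.P301S replicate 1). Of 900 alternative log2 fold changes, 850 kept their direction and 50 reversed, 40 of these on leaving out 1 mouse. The cause was not tested. With 1 mouse left out, the values in hTau.P301S vs WT ran from -0.024 to 0.44 for Junb, -0.43 to 0.014 for Arc, -0.32 to 0.21 for Npas4, -0.15 to 0.12 for Nr4a1 and -0.27 to 0.32 for Dusp1, and in hTau.P301S + NR vs hTau.P301S from -0.052 to 0.31 for Egr1. In WT + NR vs WT they ran from -0.15 to 0.28 for Fos, -0.30 to 0.15 for Egr1, -0.26 to 0.11 for Arc and -0.55 to 0.016 for Npas4. In hTau.P301S + NR vs WT + NR they ran from -0.10 to 0.33 for Fosb, -0.24 to 0.21 for Egr1, -0.37 to 0.24 for Egr2, -0.36 to 0.0030 for Npas4, -0.42 to 0.038 for Nr4a1 and -0.25 to 0.11 for Dusp1. For the interaction they ran from -0.061 to 0.50 for Egr1, -0.45 to 0.10 for Npas4, -0.43 to 0.043 for Nr4a1 and -0.37 to 0.21 for Dusp1. Nr4a1 in hTau.P301S vs WT, 0.00035, was -0.0092 by DESeq2, -0.0087 with DESeq2 size factors, -0.028 with no filter, -0.042 with at least 10 counts in every mouse and -0.0042 with all 4 groups in one fit. Without the 3 mice of high striatal markers, WT + NR vs WT gave -0.049 for Fos and 0.0035 for Fosb, hTau.P301S + NR vs WT + NR gave -0.20 for Fosb, and the interaction gave -0.057 for Egr1. Of the 10 most alike genes, 2 were shared without hTau.P301S replicate 1 and 4 by Spearman's rho.

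Same-numbered mice did not deviate together, with r from -0.54 to 0.29, so the numbers were not taken to pair the mice. With the replicate block 0 members were called, and Egr1 in WT + NR vs WT was -0.076. Over all genes, the block gave 3 calls in hTau.P301S vs WT, 0 in hTau.P301S + NR vs hTau.P301S and 4 in hTau.P301S + NR vs WT + NR.

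Calls over all genes by edgeR depended on the settings. In hTau.P301S vs WT, 1 call became 115 by DESeq2, 5 with no filter, 36 with all 4 groups in one fit, 14 without hTau.P301S replicate 1 and 2 without WT replicate 3. In hTau.P301S + NR vs hTau.P301S, 1 call became 283 by DESeq2, 0 with at least 10 counts, 2 with all 4 groups and 33 without hTau.P301S replicate 1. In hTau.P301S + NR vs WT + NR, 9 calls became 58 by DESeq2, 15 with no filter, 28 without the 3 mice of high striatal markers and 31 without WT + NR replicate 3. The interaction had 0 calls, 18 by DESeq2 and 1 without hTau.P301S replicate 3. Low counts limit Egr2 most.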

Other observations

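Among the 86 genes of the 4 further lists, those whose within-group pattern over the 16 mice was most like that of Fos were Sik1 (Pearson's r = 0.71), a kinase that restrains CREB coactivators, Vgf (0.64), a secreted neuropeptide precursor, Per1 (0.63), a circadian clock gene with a CREB-responsive promoter, and Pcsk1 (0.62), a prohormone convertase. They were chosen after their values were seen, and were at percentiles 99.0 to 99.8 of all genes. Without hTau.P301S replicate 1, their r was 0.68, 0.58, 0.56 and 0.63. The 86 genes as a whole did not follow Fos: r ran down to -0.58 for Plk2 and -0.64 for Crtc2. It was 0.056 for Egr3 and 0.11 for Jun, from the families of Egr1 and Junb.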
